A study of Mus musculus with 16 samples.

Results

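The 42 genes described here encode the proteins with which a heart takes up, stores and burns fatty acids. They were taken from a list of symbols and found among the 56953 genes of a count table of left ventricle from 16 mice. They fall into 7 genes of uptake, 7 of the lipid droplet, 6 of the carnitine shuttle and its malonyl-CoA switch, 15 of mitochondrial beta oxidation and 7 regulators and thioesterases. All mice, males and females, were of the Bl6J background and carried either normal RBM20 (WT, wild type) or the missense mutation P635L on both alleles of RBM20, a splicing factor of heart muscle. Every mouse, the WT controls included, had received 1e12 viral genomes of adeno-associated virus AAV9 by tail vein at 4 weeks of age, and the heart was taken 12 weeks later, at 16 weeks. The virus carried either the cDNA of Tnpo3, an importin that brings splicing factors into the nucleus, or a control construct with the CAG promoter, iCre and eGFP, which encode a recombinase and a fluorescent protein. The 4 groups, each of 4 mice with 1 library per mouse, are called WT Ctr and P635L Ctr (control virus) and WT Tnpo3 and P635L Tnpo3 (Tnpo3 virus). The promoter of the Tnpo3 virus is not given in the sources used here, and no uninjected group was analysed here.

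Long-chain fatty acids are the main fuel of the adult heart. They are released from lipoproteins at the capillary wall by lipoprotein lipase, taken into cardiomyocytes through membrane carriers, activated to acyl-CoA, and then either stored as triglyceride in lipid droplets or carried into mitochondria as carnitine esters. There each turn of beta oxidation shortens the chain through dehydrogenation, hydration, another dehydrogenation and thiolysis, and the electrons pass through the electron transfer flavoprotein to the respiratory chain. Many of these genes are targets of the nuclear receptor PPAR alpha and its PGC-1 coactivators, and a lower expression of the pathway is a known feature of failing hearts.

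All 42 genes passed the filter on low counts and were tested. To compare levels between genes, counts were also expressed per length as RPKM, the CPM (counts scaled to an equal library size with TMM factors) divided by kilobases of exon in the deposited table. In WT Ctr the mean RPKM was highest for Fabp3, the cytosolic fatty acid binding protein of muscle, at 4735 ± 1125 (SD, n = 4). Among the enzymes the mean RPKM was 786 ± 59.3 for Acaa2, the thiolase of the last step of beta oxidation, and 517 ± 38.5 for the lipase Lpl. The triglyceride synthase Dgat2 had 167 ± 15.7 RPKM, against 12.1 ± 1.37 for Dgat1, which catalyses the same step. At the low end stood the thioesterase Acot1 with 3.33 ± 0.833 RPKM, the nuclear receptor Ppara with 3.42 ± 2.08, and the lipase inhibitor Angptl4 with 2.95 ± 2.56. Cpt1b is the muscle form of the carnitine palmitoyltransferase, but 81.4% of its exonic bases in the deposited annotation also belong to Gm44502 on the same strand, and Gm44502 had at most 2 counts in a library. Cpt1b, called in none of the 6 contrasts, is kept in the counts and medians over the 42, but its own level and changes are not described. Fabp3 shares 29.2% of its 50-base windows with Fabp3-ps1, so its own level is uncertain.

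**Figure D1:**
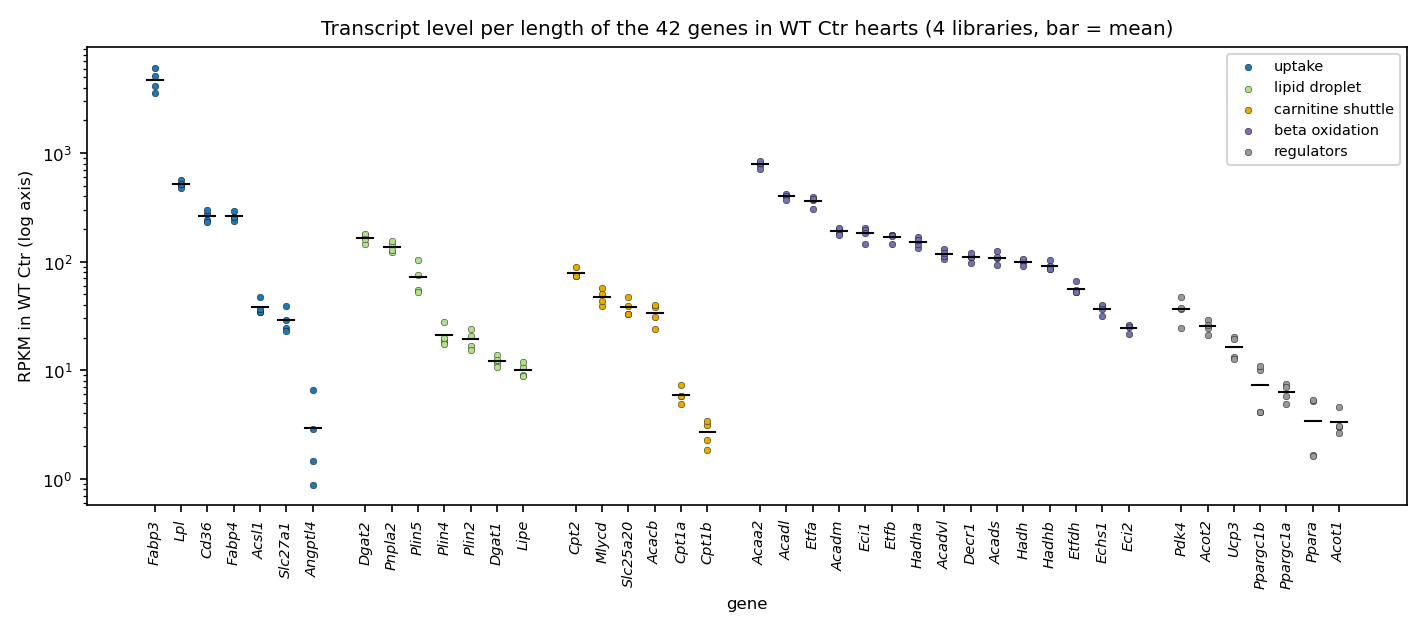
Each point is 1 of the 4 WT Ctr libraries and each bar the mean, in RPKM on a log axis, for the 42 genes grouped by role. Fabp3 stands above all other members, the beta oxidation genes lie between the Eci2 and Acaa2 levels, and Angptl4, Ppara and Acot1 are low. Cpt1b is drawn but its level is uncertain.

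The libraries held 28493249 to 85922669 counts. In the libraries given Tnpo3 virus the Tnpo3 transcript was at 231 to 507 CPM in WT and 234 to 722 in P635L, against 41.6 to 49.4 and 41.9 to 47.8 with the control virus. Rbm20 was at 167 to 333 CPM in WT Ctr and 204 to 254 in P635L Ctr, and a missense mutation is not checked by this count. 3 WT libraries stood apart: in WT Ctr replicates 2 and 4 and WT Tnpo3 replicate 4 a single transcript, ENSMUSG00000119584, took 19.96% to 22.7% of the counts, against 0.703% to 5.30% in the other 13. Xist exceeded the Y-linked genes in WT Ctr replicate 4 and WT Tnpo3 replicates 2 and 4 and in 0 of the 8 P635L libraries, so sex and genotype are partly confounded. The WT groups varied more between mice, with common biological coefficients of variation of 0.328 (WT Ctr) and 0.299 (WT Tnpo3), than the P635L groups with 0.169 (Ctr) and 0.175 (Tnpo3). The 8 cardiomyocyte markers (Myh6, Actc1 and others) summed to 76874 to 94053 CPM in WT Ctr, 54433 to 58537 in P635L Ctr and 59364 to 69400 in P635L Tnpo3. The 6 fibroblast markers (Pdgfra, Dcn, Lum and others) summed to 731 to 1072 CPM in WT Ctr, 1168 to 1700.4 in P635L Ctr and 810.4 to 1083 in P635L Tnpo3.

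The first comparison, P635L Ctr against WT Ctr, asked what the mutation does to these genes under the control virus. Of the 42 genes, 11 were called lower at an adjusted p under 0.05 and 0 higher, against 14.2% of all 18662 genes tested called in either direction and 7.14% called lower. The called genes were the lipase Lpl, the triglyceride synthase Dgat2, Acacb and Cpt2 of the carnitine step, 6 beta oxidation genes (Acaa2, Decr1, Etfb, Hadh, Hadha and Eci1) and the thioesterase Acot1. Without regard to the test, 40 of the 42 log2 fold changes were below 0, against 55% of all genes, and their median was -0.39, against -0.05 for all genes. In 14 genes every P635L Ctr library lay below every WT Ctr library, which held for 9.43% of all genes. In bulk tissue, fewer cells of a type and less RNA per cell cannot be told apart. The cardiomyocyte markers were lower with the mutation in 8 of 8 genes, 4 of them called (Myh6, Tnni3, Myl2 and Myl3), and 5 of 6 fibroblast markers were called higher. The 5 macrophage markers were all below WT Ctr, 1 of them called (Cd68, -0.88), and summed to 155 to 440.0 CPM in WT Ctr and 137 to 179 in P635L Ctr. The part of these markers in the lower fatty acid genes was not tested.

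When the 3 libraries with much ENSMUSG00000119584 were left out, 10 members were called lower, 9 of them among the 11. Among all genes 2320 of 19532 were called in that fit, and the median of the members was -0.25. Without the 3 libraries with high Xist 15 members were called, 10 of them among the 11 (3006 of 19434 among all genes). With a covariate for high Xist (sex covariate) 12 were called, all 11 among them (2724 of 18662). A covariate was also made from the 4 adipocyte markers that passed the filter (Plin1, Cidec, Cfd and Adig). It was the sum of their log2 CPM and not of their CPM. With it 6 genes were called, and the calls of Lpl, Cpt2, Acacb, Hadha and Hadh were lost. The calls among all genes went from 2653 to 1049. Those 4 markers were themselves low: Plin1 had 0 to 24 counts in a library, Cidec 0 to 41, Cfd 6 to 117 and Adig 13 to 122. They summed to 1.56 to 6.20 CPM in WT Ctr, 0.507 to 1.90 in P635L Ctr and 2.24 to 3.47 in P635L Tnpo3. Of the adipocyte markers outside the covariate, Adipoq had 0 to 23 counts in a library and Lep 0 to 4.

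**Figure D2:**
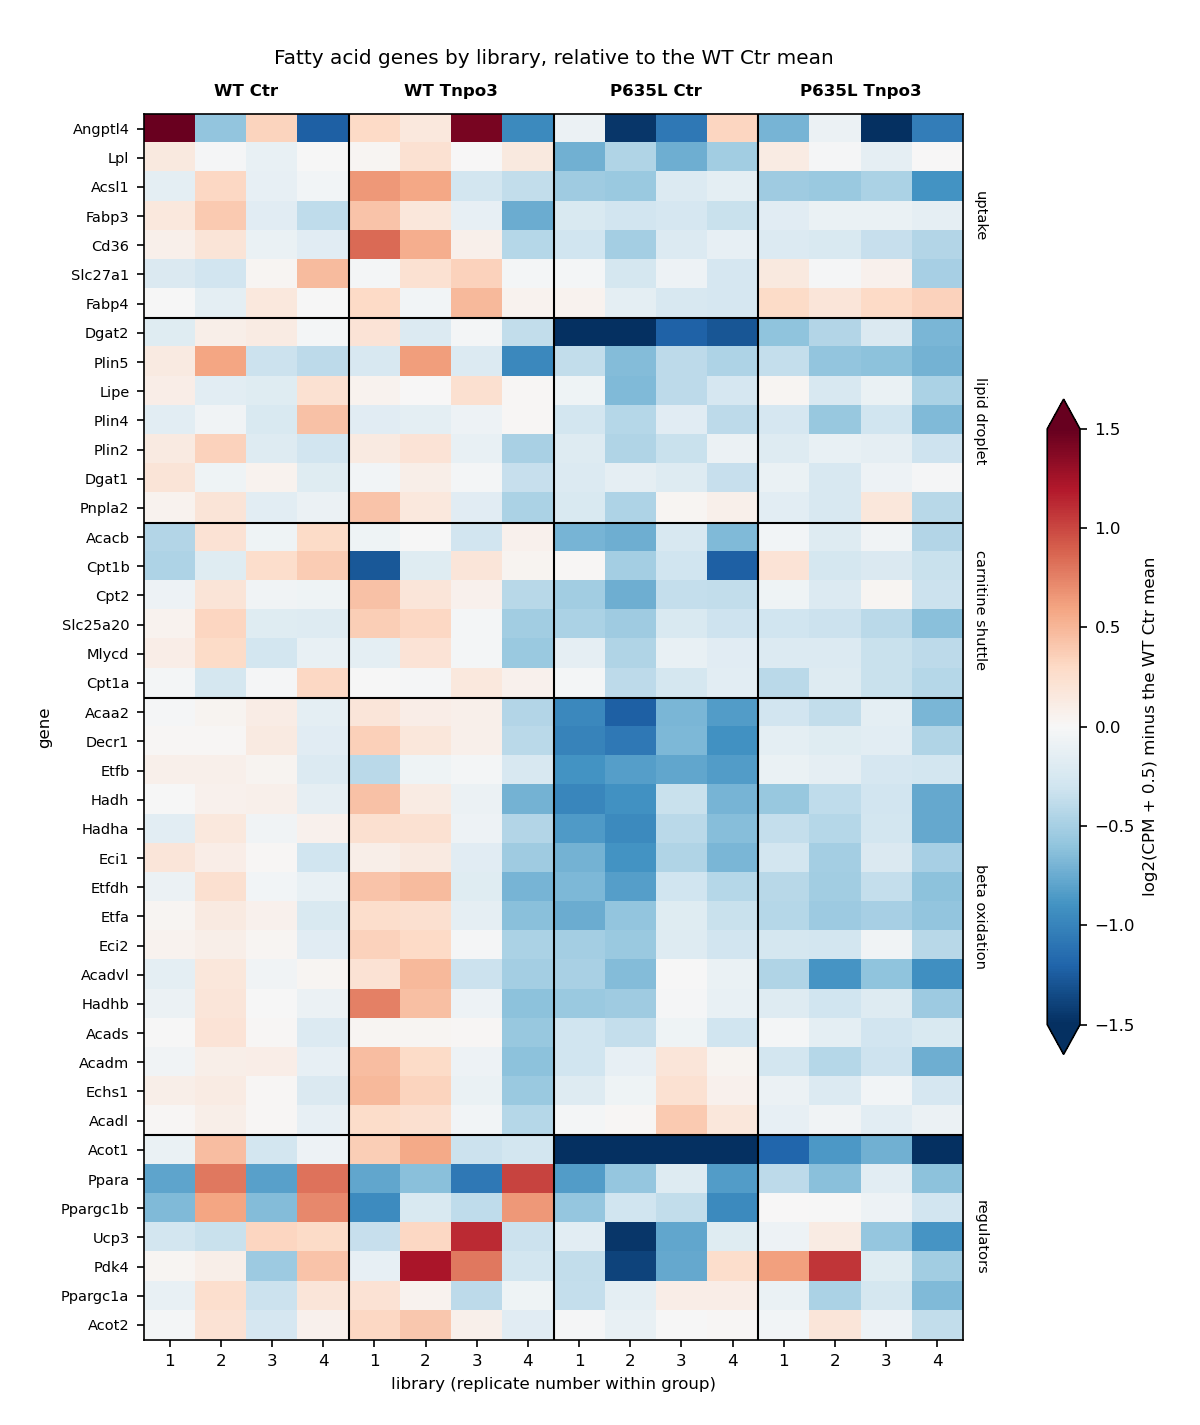
Rows are the 42 genes by role, columns the 16 libraries, and colour is log2(CPM + 0.5) minus its mean in WT Ctr, blue for lower. The 4 P635L Ctr columns are blue for 34 to 41 of the 42 genes, the 4 P635L Tnpo3 columns for 35 to 40, and WT Tnpo3 replicate 4 for 33. The P635L Tnpo3 columns are paler than P635L Ctr for Dgat2, Lpl, Decr1 and Etfb, and for Acaa2 except in replicate 4.

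Among the uptake genes, 1 of 7 was called, a share near the 14.2% of all genes, with a median log2 fold change of -0.31, and the 7 genes together summed to 12006 ± 1155 CPM (SD, n = 4) in WT Ctr and 9025 ± 195 in P635L Ctr. Lpl (ENSMUSG00000015568, chr8:69333143-69360100, plus strand) encodes lipoprotein lipase, which frees fatty acids from circulating triglyceride. In replicate order, as throughout, it was at 5959, 5321, 4987 and 5383 CPM in WT Ctr and at 3281, 3962, 3262 and 3763 CPM in P635L Ctr. The groups did not overlap, and the log2 fold change was -0.60 ± 0.11 (SE, edgeR adjusted p = 0.00147). Acsl1, the long-chain acyl-CoA synthetase, was at 358, 493, 363 and 384 CPM in WT Ctr and 274, 269, 343 and 357 in P635L Ctr. Its groups did not overlap either, the ranges lying 358 and 357 CPM at their nearest, but the difference of -0.36 ± 0.20 (SE, edgeR adjusted p = 0.261) was not called. The other 5 did not pass the test: Cd36, the membrane translocase, differed by -0.28 (edgeR adjusted p = 0.368), Fabp3 by -0.31 (0.324), Slc27a1 by -0.18 (0.497) and Fabp4 by -0.15 (0.478). Fabp3 varied widely among WT Ctr libraries, at 4254, 5018, 3381 and 2936 CPM, and little among P635L Ctr, at 3268, 3119, 3202 and 3026 CPM. Angptl4, a secreted inhibitor of Lpl, was at 23.3, 5.16, 10.2 and 3.13 CPM in WT Ctr and 7.49, 2.60, 3.56 and 10.1 in P635L Ctr. Its groups overlapped throughout and the difference of -0.82 ± 0.66 (SE, edgeR adjusted p = 0.457) was within their spread.

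Of the lipid droplet genes, again 1 of 7 was called, near the 14.2% of all genes called in either direction (7.14% lower). The median was -0.34, and their summed level in WT Ctr came to 1373 ± 105 CPM (SD, n = 4), against 910.0 ± 105 in P635L Ctr. Dgat2 (ENSMUSG00000030747, chr7:98802865-98831926, minus strand), an acyltransferase of the last step of triglyceride synthesis, was at 451, 543, 559 and 501 CPM in WT Ctr and 166, 168, 221 and 210.3 in P635L Ctr. The highest mutant library lay below 451 CPM, the lowest WT Ctr value, and the P635L Ctr mean was 37.2% of the WT Ctr mean. The log2 fold change was -1.43 ± 0.15 (SE, edgeR adjusted p = 2.8e-06). For Dgat1 the ranges were 32.5 to 42.3 CPM in WT Ctr and 28.8 to 33.5 in P635L Ctr, with a difference of -0.23 ± 0.11 (SE, edgeR adjusted p = 0.184), and whether the acyltransferases differ in response was not tested. Pnpla2, the adipose triglyceride lipase and the most abundant of the droplet lipases per length, was at 427, 470.1, 367 and 388 CPM in WT Ctr and 351, 298, 419.6 and 432 in P635L Ctr. These groups overlapped, and its difference was -0.14 ± 0.18 (SE, edgeR adjusted p = 0.65). The droplet coat genes Plin5, Plin4 and Plin2 differed by -0.52, -0.34 and -0.28 and hormone-sensitive lipase Lipe by -0.34, with edgeR adjusted p-values of 0.198, 0.113, 0.244 and 0.114.

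Of the carnitine shuttle genes, 2 of 6 were called, both lower, against 14.2% of all genes called and 7.14% called lower. Their median was -0.45 over the 6 genes. Cpt2 (ENSMUSG00000028607, chr4:107761178-107780807, minus strand), which re-forms acyl-CoA on the matrix side, was at 176, 212, 179 and 178 CPM in WT Ctr and 129, 112, 144 and 144 in P635L Ctr. The groups did not overlap and the difference was -0.49 ± 0.15 (SE, edgeR adjusted p = 0.0341). Acacb (ENSMUSG00000042010, chr5:114284596-114388822, plus strand), the acetyl-CoA carboxylase whose product malonyl-CoA inhibits CPT1, was at 233, 365, 299.9 and 386 CPM in WT Ctr and 194, 189, 266 and 198 in P635L Ctr. Here WT Ctr replicate 1 lay inside the mutant range, and the difference was -0.60 ± 0.16 (SE, edgeR adjusted p = 0.0144). Both calls were lost under several settings. Without the 3 libraries rich in ENSMUSG00000119584, the values were (-0.30, edgeR adjusted p = 0.237) for Acacb and (-0.39, 0.0691) for Cpt2. Acacb was also not called without WT Ctr replicate 2 (-0.51, edgeR adjusted p = 0.0581), P635L Ctr replicate 1 (-0.54, 0.055) or 2 (-0.53, 0.0619), or the libraries with high Xist (-0.46, 0.0569). Cpt2 was not called without WT Ctr replicate 2 (-0.40, edgeR adjusted p = 0.119) or 3 (-0.51, 0.0508), or P635L Ctr replicate 1 (-0.46, 0.0835), 2 (-0.40, 0.127) or 4 (-0.53, 0.051), nor with no filter on low counts (-0.45, 0.0529). Slc25a20, the carnitine-acylcarnitine translocase, did not overlap between the groups but differed by -0.40 ± 0.17 (SE, edgeR adjusted p = 0.125). Cpt1a, the liver form of the entry enzyme, differed by -0.22 (edgeR adjusted p = 0.224) and the malonyl-CoA decarboxylase Mlycd by -0.23 (0.338).

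Beta oxidation held most of the calls, 6 of 15 genes, all lower, against 14.2% of all genes called and 7.14% called lower. The median of the 15 genes was -0.46. Of the 15, 13 lay below 0 (55% of all genes) and 8 were lower with no overlap (9.43% of all genes). Their summed level in WT Ctr came to 8262 ± 553 CPM (SD, n = 4), against 6076 ± 907 in P635L Ctr. None of the 6 was an acyl-CoA dehydrogenase of the first step. Hadha (ENSMUSG00000025745, chr5:30323302-30360160, minus strand), the alpha subunit of the trifunctional protein, was at 1177, 1463, 1272 and 1371 CPM in WT Ctr and 727, 679, 995 and 848 in P635L Ctr, a difference of -0.70 ± 0.16 (SE, edgeR adjusted p = 0.00634). Hadh (ENSMUSG00000027984, chr3:131027068-131065750, minus strand), the medium- and short-chain hydroxyacyl-CoA dehydrogenase, was at 494, 521, 526 and 452 CPM and 253, 264, 394 and 307 CPM. Neither gene overlapped between the groups, and Hadh differed by -0.71 ± 0.19 (SE, edgeR adjusted p = 0.0187). The Hadh call was lost without WT Ctr replicate 2 (-0.67, edgeR adjusted p = 0.051) or P635L Ctr replicate 1 (-0.62, 0.0683) or 2 (-0.63, 0.0682). The thiolase Acaa2 (ENSMUSG00000036880) was at 1174, 1226, 1289 and 1076 CPM in WT Ctr and 608, 508, 741 and 664 in P635L Ctr. The highest mutant library was at 741 CPM and the lowest WT Ctr library at 1076, and the log2 fold change was -0.92 ± 0.15 (SE, edgeR adjusted p = 0.000447).

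Of the auxiliary enzymes that prepare unsaturated chains, Decr1 and Eci1 were called lower and Eci2 was not. Decr1 (ENSMUSG00000028223, chr4:15917240-15945507, minus strand), the mitochondrial dienoyl-CoA reductase, was at 432, 431, 466 and 378 CPM in WT Ctr and 213, 202, 267 and 227 in P635L Ctr, and differed by -0.91 ± 0.14 (SE, edgeR adjusted p = 0.000284). Eci1 (ENSMUSG00000024132, chr17:24645615-24658322, plus strand), an enoyl-CoA isomerase, was at 436, 414, 391 and 312 CPM and 236, 207, 281 and 239.9 CPM, and differed by -0.69 ± 0.15 (SE, edgeR adjusted p = 0.0041). In both genes all 4 mutant libraries lay below all 4 WT Ctr libraries. The related isomerase Eci2 likewise showed no overlap but missed the threshold, at -0.39 ± 0.15 (SE, edgeR adjusted p = 0.0962). Etfb (ENSMUSG00000004610, chr7:43093507-43107224, plus strand), the beta subunit of the electron transfer flavoprotein, was at 207, 207, 201 and 169.8 CPM in WT Ctr and 105, 109.7, 113 and 109 in P635L Ctr. The mutant libraries lay close together, their mean was 55.8% of WT Ctr, and the difference was -0.84 ± 0.10 (SE, edgeR adjusted p = 2.32e-05). Etfb shares 53.0% of its exonic bases with Etfbl on the same strand, which had at most 6 counts in a library, so its absolute level is uncertain. Its partner subunit Etfa differed by -0.46 ± 0.17 (SE, edgeR adjusted p = 0.0797) and the dehydrogenase Etfdh, which passes the electrons on, by -0.55 ± 0.20 (SE, edgeR adjusted p = 0.0739).

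The acyl-CoA dehydrogenases of the first step had 0 calls among 4, a set too small to tell apart from the 14.2% of all genes called. The difference was -0.29 ± 0.20 (SE, edgeR adjusted p = 0.352) for the very-long-chain form Acadvl, -0.26 (edgeR adjusted p = 0.218) for Acads, -0.04 (0.91) for Acadm and 0.14 (0.541) for Acadl. Acadm was at 713, 786, 793 and 681 CPM in WT Ctr and 605, 680.5, 841 and 763 in P635L Ctr, ranges that overlapped. The hydratase Echs1 differed by 0.01 (0.976), and Hadhb, the beta subunit of the trifunctional protein, by -0.29 (0.411), though 19.7% of its 50-base windows are shared with other transcripts. Whether the steps, or the subunits of a complex, differ in response was not tested. Acadvl shares 42.9% of its exonic bases with Dvl2 on the other strand, and since the strand setting of the counts is not given in the sources used here, reads of both could not be separated.

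The starts of 4 of these genes are shown as examples picked by hand, not by the size of their change. Etfb, Acot1 and Hadha were called with the mutation, and Acadm did not pass the test. Hadha and its partner Hadhb leave from a shared stretch. Each is the 250 bases before the RefSeq start site of the gene in GRCm38.p6, which is not the build of the counts. RefSeq promoters matched 33 of the 42 genes, with 38 start sites, and Dgat2, Lpl, Decr1 and Acaa2 had no entry. The search on both strands was for AGGTCA, the hexamer bound by nuclear receptors of the PPAR, RXR and estrogen-related receptor families, and capitals mark it, written as TGACCT where it lies on the opposite strand. Positions are chr7:43443822-43444071 on the plus strand, chr12:84009252-84009501 on the plus strand, chr5:30154981-30155230 on the minus strand and chr3:153944644-153944893 on the minus strand.
Etfb: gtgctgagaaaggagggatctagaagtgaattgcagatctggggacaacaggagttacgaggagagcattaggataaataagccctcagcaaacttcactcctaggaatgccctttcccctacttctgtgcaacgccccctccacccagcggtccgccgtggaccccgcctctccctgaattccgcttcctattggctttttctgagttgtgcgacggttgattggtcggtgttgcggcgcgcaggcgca
Acot1: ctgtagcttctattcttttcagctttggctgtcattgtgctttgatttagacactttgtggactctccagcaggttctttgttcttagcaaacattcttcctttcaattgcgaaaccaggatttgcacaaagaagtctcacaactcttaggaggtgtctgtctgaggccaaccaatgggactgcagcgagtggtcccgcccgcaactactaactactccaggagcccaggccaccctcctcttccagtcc
Hadha: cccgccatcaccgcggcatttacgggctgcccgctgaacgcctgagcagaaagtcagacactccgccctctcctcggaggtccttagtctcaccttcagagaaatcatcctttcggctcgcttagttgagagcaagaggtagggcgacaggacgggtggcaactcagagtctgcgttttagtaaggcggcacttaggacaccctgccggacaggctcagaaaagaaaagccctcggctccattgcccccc
Acadm: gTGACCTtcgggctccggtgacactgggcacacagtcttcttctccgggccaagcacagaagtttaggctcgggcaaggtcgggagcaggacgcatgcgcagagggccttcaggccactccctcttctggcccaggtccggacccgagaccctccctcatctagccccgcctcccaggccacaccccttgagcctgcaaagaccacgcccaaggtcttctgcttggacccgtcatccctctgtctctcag

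The hexamer was present in 8 of the 38 promoters (21.1%), against 14% of all 32851 mouse promoters of the same length. These were the promoters of Acadm, Acadvl, Cd36, Cpt1a, Echs1, Plin2, Plin5 and Ucp3. AAGGTCA, which contains it, occurred in 1 of the 38 (2.63%, Acadm) against 4.08% of all promoters, and a direct repeat of the hexamer with 1 base between in 0 against 0.0335%. Hadha and Hadhb are transcribed away from each other from start sites 273 bases apart, so their stretches share 228 bases. These matches describe the letters in the window and no binding was measured.

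Among the regulators and thioesterases 1 of 7 was called, also near the 14.2% of all genes called in either direction (7.14% lower). The median was -0.60. Acot1 (ENSMUSG00000072949, chr12:84056264-84065145, plus strand), the cytosolic acyl-CoA thioesterase, was at 11.9, 17.8, 10.4 and 12.1 CPM in WT Ctr and 3.92, 2.63, 3.22 and 3.39 in P635L Ctr. The mutant mean was 25.2% of the WT Ctr mean, and the difference of -1.99 ± 0.26 (SE, edgeR adjusted p = 3.79e-05) was the largest of the 42. The mitochondrial thioesterase Acot2, from the same gene cluster, was at 46.3 to 64.2 CPM in WT Ctr and 50.9 to 55.9 in P635L Ctr, a difference of -0.04 ± 0.14 (SE, edgeR adjusted p = 0.885). Acot1 shares 13.6% of its 50-base windows with Acot2, so a part of either count could come from the other. Pdk4, the kinase that restrains glucose oxidation, was at 128, 132, 85.3 and 168 CPM in WT Ctr and 96.5, 47.4, 72.9 and 149 in P635L Ctr, with overlapping groups and a difference of -0.49 ± 0.43 (SE, edgeR adjusted p = 0.491). Ucp3, a mitochondrial carrier, differed by -0.60 (edgeR adjusted p = 0.296) and the coactivator Ppargc1a by -0.08 (0.783).

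Ppara and its coactivator Ppargc1b were high in the 3 libraries that stood apart. Ppara was at 6.30, 19.9, 6.17 and 20.2 CPM in WT Ctr and 6.37, 7.11, 5.09 and 23.2 CPM in WT Tnpo3. The P635L libraries were at 6.06, 7.34, 9.78 and 6.10 CPM with the control virus and 8.49, 7.13, 10.04 and 7.15 CPM with the Tnpo3 virus. The 3 WT libraries rich in ENSMUSG00000119584 were at 19.9 to 23.2 CPM, the other 5 WT libraries at 5.09 to 7.11 and the 8 P635L libraries at 6.06 to 10.04. Ppargc1b was at 39.7 to 43.6 CPM in those 3 libraries, 13.4 to 22.3 in the other WT libraries and 13.3 to 26.3 in P635L. The differences between P635L Ctr and WT Ctr, -0.84 ± 0.48 (SE, edgeR adjusted p = 0.273) for Ppara and -0.69 ± 0.35 (SE, edgeR adjusted p = 0.209) for Ppargc1b, were within the spread of the WT group.

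**Figure D3:**
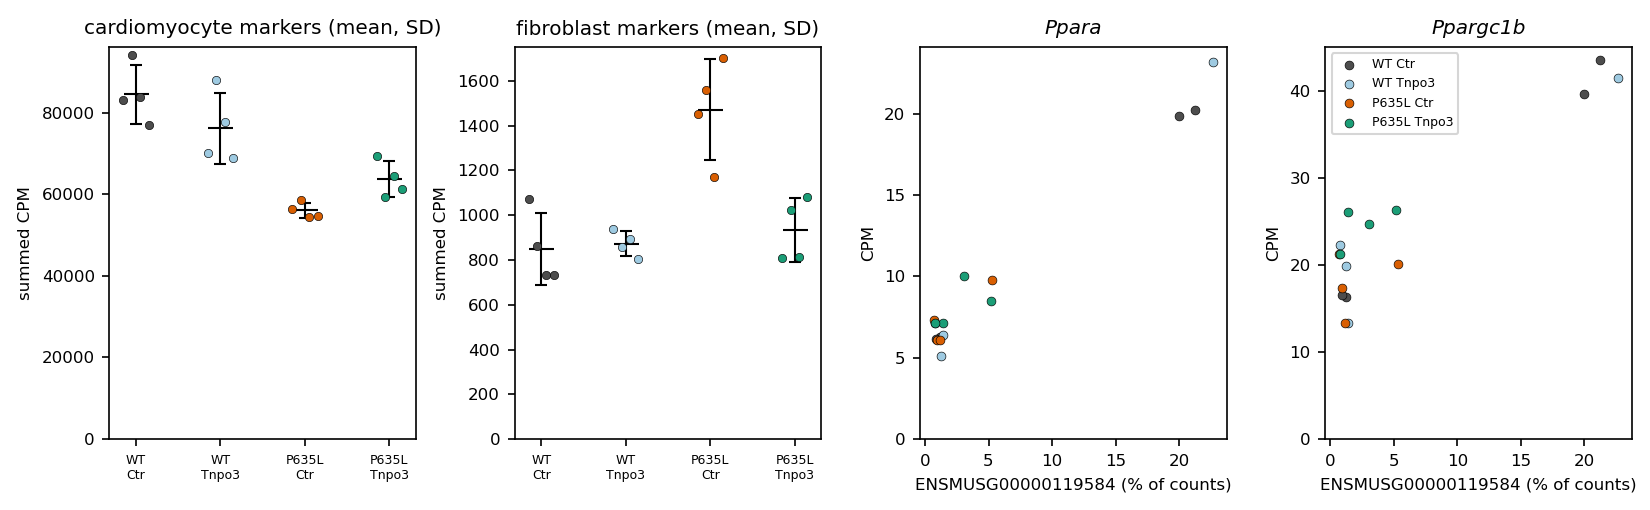
The left panels give the summed CPM of 8 cardiomyocyte and 6 fibroblast markers per library with the mean and SD of each group (n = 4), the right panels Ppara and Ppargc1b CPM against the percentage of counts taken by ENSMUSG00000119584. The P635L Ctr libraries have the lowest cardiomyocyte sums (54433 to 58537) and the highest fibroblast sums (1168 to 1700.4), and 3 WT libraries stand alone at the upper right for both regulators.

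The second comparison, P635L Tnpo3 against P635L Ctr, asked what the Tnpo3 virus changed in mutant hearts. Of the 42 genes 5 were called, all higher (Dgat2, Etfb, Lpl, Decr1 and Acaa2), against 3.88% of all genes called and 1.63% called higher. All 5 are among the 11 genes that were lower with the mutation, and since both comparisons contain the P635L Ctr libraries, a low value there moves both. By role the calls were 1 of 7 uptake genes, 1 of 7 droplet genes, 3 of 15 beta oxidation genes and 0 of the 6 shuttle genes and 7 regulators. The median log2 fold change of the 42 was 0.11, against 0.01 for all genes, with 25 above 0 (50.9% of all genes) and 17 below. In 8 genes every P635L Tnpo3 library lay above every P635L Ctr library, against 9.36% of all genes, and in 1 gene, Acadl, every one lay below, against 11%.

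Lpl was at 5869, 5349, 4910.2 and 5431 CPM in P635L Tnpo3, all above the P635L Ctr libraries, and 3 of the 4 lay inside the WT Ctr range with replicate 3 just under it. Its log2 fold change over P635L Ctr was 0.60 ± 0.11 (SE, edgeR adjusted p = 0.00673), and the mean was 99.6% of WT Ctr. Dgat2 was at 336, 377, 439 and 318 CPM, between the groups: all 4 libraries lay above P635L Ctr and all 4 below WT Ctr. Its mean rose from 37.2% to 71.6% of WT Ctr, a log2 rise of 0.94 ± 0.14 (SE, edgeR adjusted p = 0.00107). Etfb was at 183, 178, 164 and 161 CPM, above all P635L Ctr libraries, a rise of 0.65 ± 0.10 (SE, edgeR adjusted p = 0.00163), with a mean of 87.4% of WT Ctr. Decr1 was at 383, 375, 382 and 311 CPM and rose by 0.68 ± 0.14 (SE, edgeR adjusted p = 0.0125), to 85.0% of WT Ctr. Acaa2 was at 973, 921, 1074 and 739 CPM and rose by 0.56 ± 0.15 (SE, edgeR adjusted p = 0.048), but P635L Tnpo3 replicate 4 lay just below P635L Ctr replicate 3. The calls for Lpl, Dgat2, Etfb and Decr1 held in all 27 alternative analyses. That for Acaa2 held in 17, and was lost, for example, without P635L Tnpo3 replicate 3 (0.48, edgeR adjusted p = 0.168), 1 (0.53, 0.122) or 2 (0.57, 0.0837), without P635L Ctr replicate 1 (0.56, 0.0916), 2 (0.48, 0.132) or 4 (0.58, 0.107), and without WT Ctr replicate 2 (0.56, 0.0504) or 3 (0.55, 0.0584) or WT Tnpo3 replicate 3 (0.55, 0.0585).

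**Figure D4:**
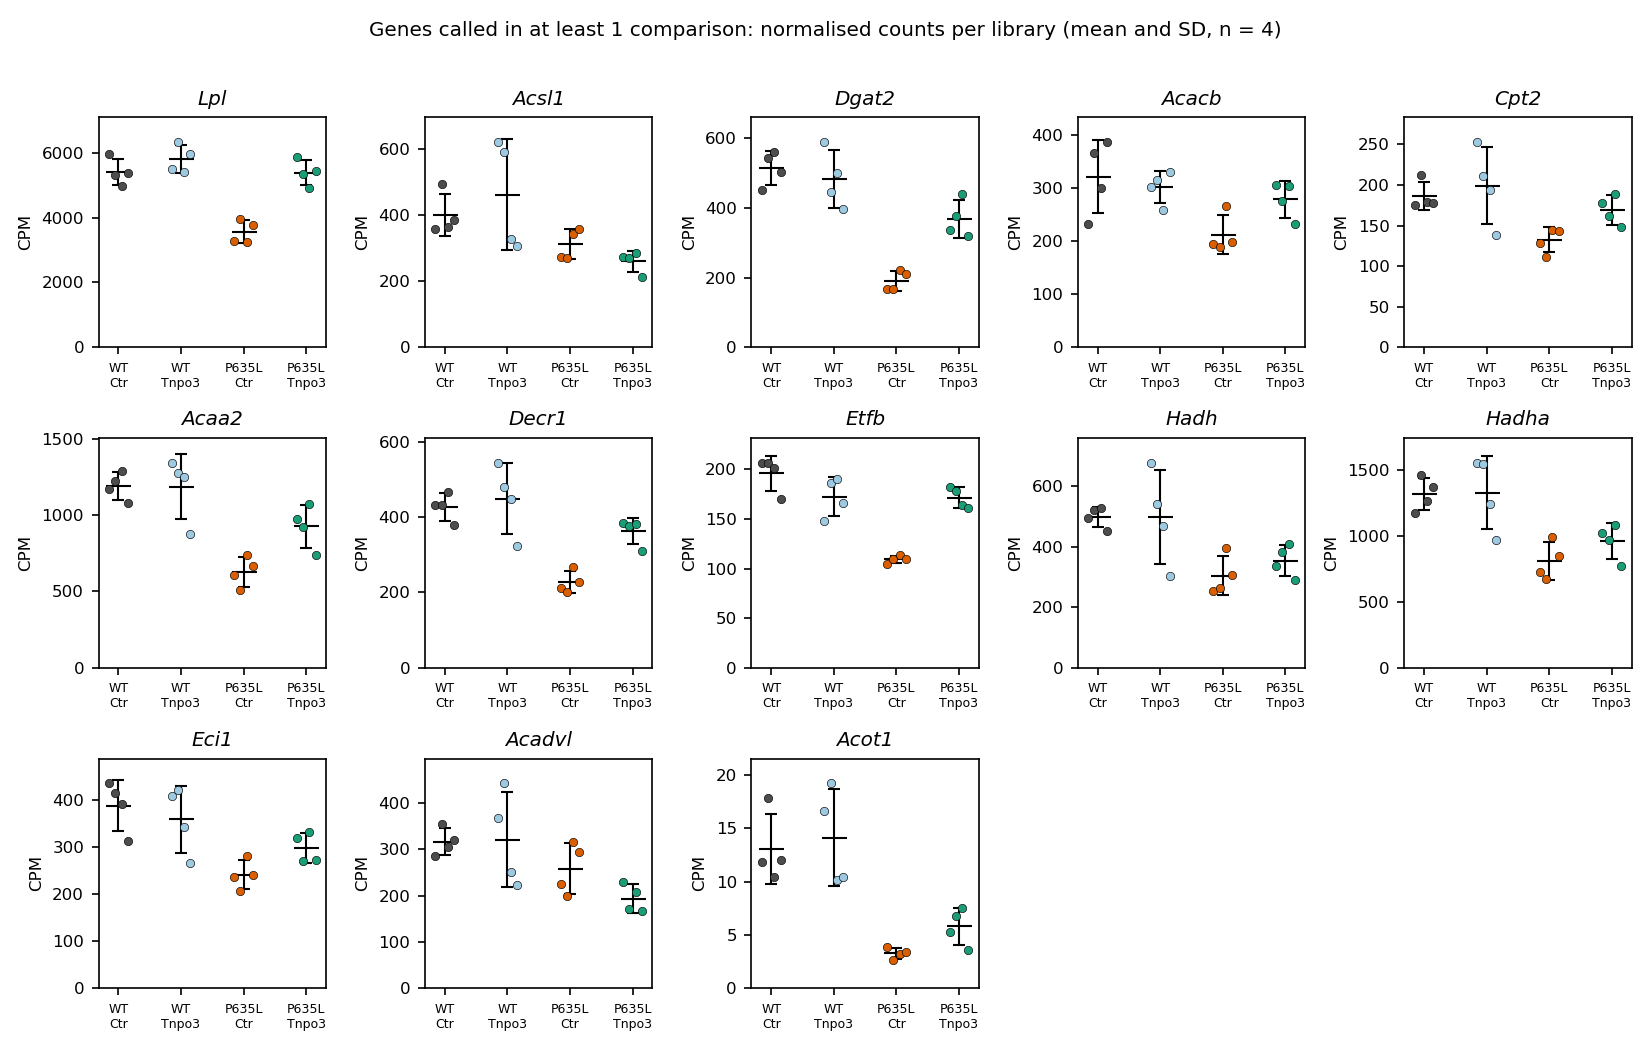
Points are the CPM of each library for the 13 genes called in at least 1 comparison, with the group mean and SD (n = 4) in black and axes from 0. P635L Ctr is lowest of the 4 groups for 11 of the 13 genes, and P635L Tnpo3 is lowest for Acsl1 and Acadvl.

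The other 6 genes called with the mutation did not pass this test. Acot1 was at 5.32, 6.80, 7.53 and 3.54 CPM in P635L Tnpo3, with replicate 4 inside the P635L Ctr range, and differed by 0.82 ± 0.25 (SE, edgeR adjusted p = 0.0751). It was called once the 3 libraries rich in ENSMUSG00000119584 were left out (0.82, edgeR adjusted p = 0.0432) and without P635L Tnpo3 replicate 4 (1.00, 0.0268), and also with DESeq2 and with only the groups compared in the fit. Cpt2 was at 178, 161, 189 and 148 CPM, all above P635L Ctr, and differed by 0.35 ± 0.15 (SE, edgeR adjusted p = 0.21). Acacb was at 305, 275, 303 and 231 CPM and Eci1 at 319, 271, 333 and 272 CPM, with differences of 0.39 ± 0.16 (SE, edgeR adjusted p = 0.179) and 0.31 (0.276). Hadha was at 1024, 975, 1084 and 772 CPM and Hadh at 335, 383, 407 and 291 CPM, both overlapping P635L Ctr. Their differences were 0.25 ± 0.16 (SE, edgeR adjusted p = 0.445) and 0.22 (0.605), and their means stood at 73.0% and 71.1% of WT Ctr.

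Outside the genes lowered by the mutation, Fabp4, a fatty acid binding protein of endothelial cells and adipocytes, was at 1217, 1059, 988 and 983 CPM in P635L Ctr and 1434, 1331, 1442 and 1492 in P635L Tnpo3. The groups did not overlap, but the difference of 0.42 ± 0.12 (SE, edgeR adjusted p = 0.0657) missed the threshold. It was called with upper-quartile factors, with DESeq2, with a mean CPM of at least 1 as filter, with a sex or an adipocyte covariate and with only the groups compared in the fit. The same held without the libraries rich in ENSMUSG00000119584, without those with high Xist, and without WT Tnpo3 replicate 2 or 4. The 8 endothelial markers summed to 1242.5 to 1357 CPM in P635L Ctr and 1423 to 1534 in P635L Tnpo3, with 0 of 8 called. Of the 8, 5 lay above P635L Ctr and 3 below. At an unadjusted edgeR p under 0.05 there were 5, and 4 were higher without overlap (9.36% of all genes). The part of these markers in the Fabp4 values was not tested. Pdk4 was at 192, 263, 110.2 and 86.5 CPM in P635L Tnpo3 and differed by 0.83 ± 0.43 (SE, edgeR adjusted p = 0.32), within its spread. None of the 4 first-step dehydrogenases passed, at -0.42 for Acadvl, -0.39 for Acadm, -0.25 for Acadl and 0.08 for Acads, with edgeR adjusted p-values of 0.264, 0.257, 0.36 and 0.814. When only the libraries of these groups entered the fit Acadm was called, lower in P635L Tnpo3. Between the mutant groups 4 of 6 fibroblast markers were called lower and 1 of 8 cardiomyocyte markers (Myl3, 0.97) and 1 of 4 adipocyte markers (Adig, 1.48) higher. Without regard to the test, 4 of the 8 cardiomyocyte markers lay above P635L Ctr and 4 below, with a median of 0. Of the 4 adipocyte markers 3 lay above and 1 below. The 5 macrophage markers were all above P635L Ctr, by 0.37 to 0.85, with 0 called, 4 at an unadjusted p under 0.05 and 3 without overlap (9.36% of all genes), and summed to 197 to 309 CPM in P635L Tnpo3. The part of these markers in the fatty acid genes was not tested.

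The third comparison, P635L Tnpo3 against WT Ctr, asked what still differed from control hearts. Only Acot1 was called among the 42, at -1.17 ± 0.25 (SE, edgeR adjusted p = 0.0134), against 3.07% of all genes called and 1.58% called lower. All 4 P635L Tnpo3 libraries lay below all 4 WT Ctr libraries, and the mean was 44.4% of WT Ctr. This call was lost without WT Ctr replicate 2, the highest library (-0.96, edgeR adjusted p = 0.0617), with the 3 libraries rich in ENSMUSG00000119584 left out (-0.91, 0.123) and with the adipocyte covariate (-1.11, 0.0618). Most genes nevertheless stayed on the lower side: 40 of 42 values were below 0, against 56% of all genes, the median was -0.30, and in 14 genes the groups did not overlap, against 6.92% of all genes. The lowest among these, relative to WT Ctr, included Acadvl at -0.71 ± 0.20 (SE, edgeR adjusted p = 0.0587) and Acsl1 at -0.62 ± 0.20 (SE, edgeR adjusted p = 0.113), neither called. Fabp4 was the 1 gene whose P635L Tnpo3 libraries all lay above WT Ctr (4.75% of all genes), at 0.28 ± 0.12 (SE, edgeR adjusted p = 0.24). The count of calls was 4 when only the libraries of these groups entered the fit (390 of 17453 among all genes) and 4 with DESeq2 (1135 of 18662). Leaving out WT Ctr replicate 3 gave 2 calls (686 of 19229), and so did leaving out WT Tnpo3 replicate 2 (541 of 19145). Leaving out WT Tnpo3 replicate 4 gave 4 (736 of 19045).

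**Figure D5:**
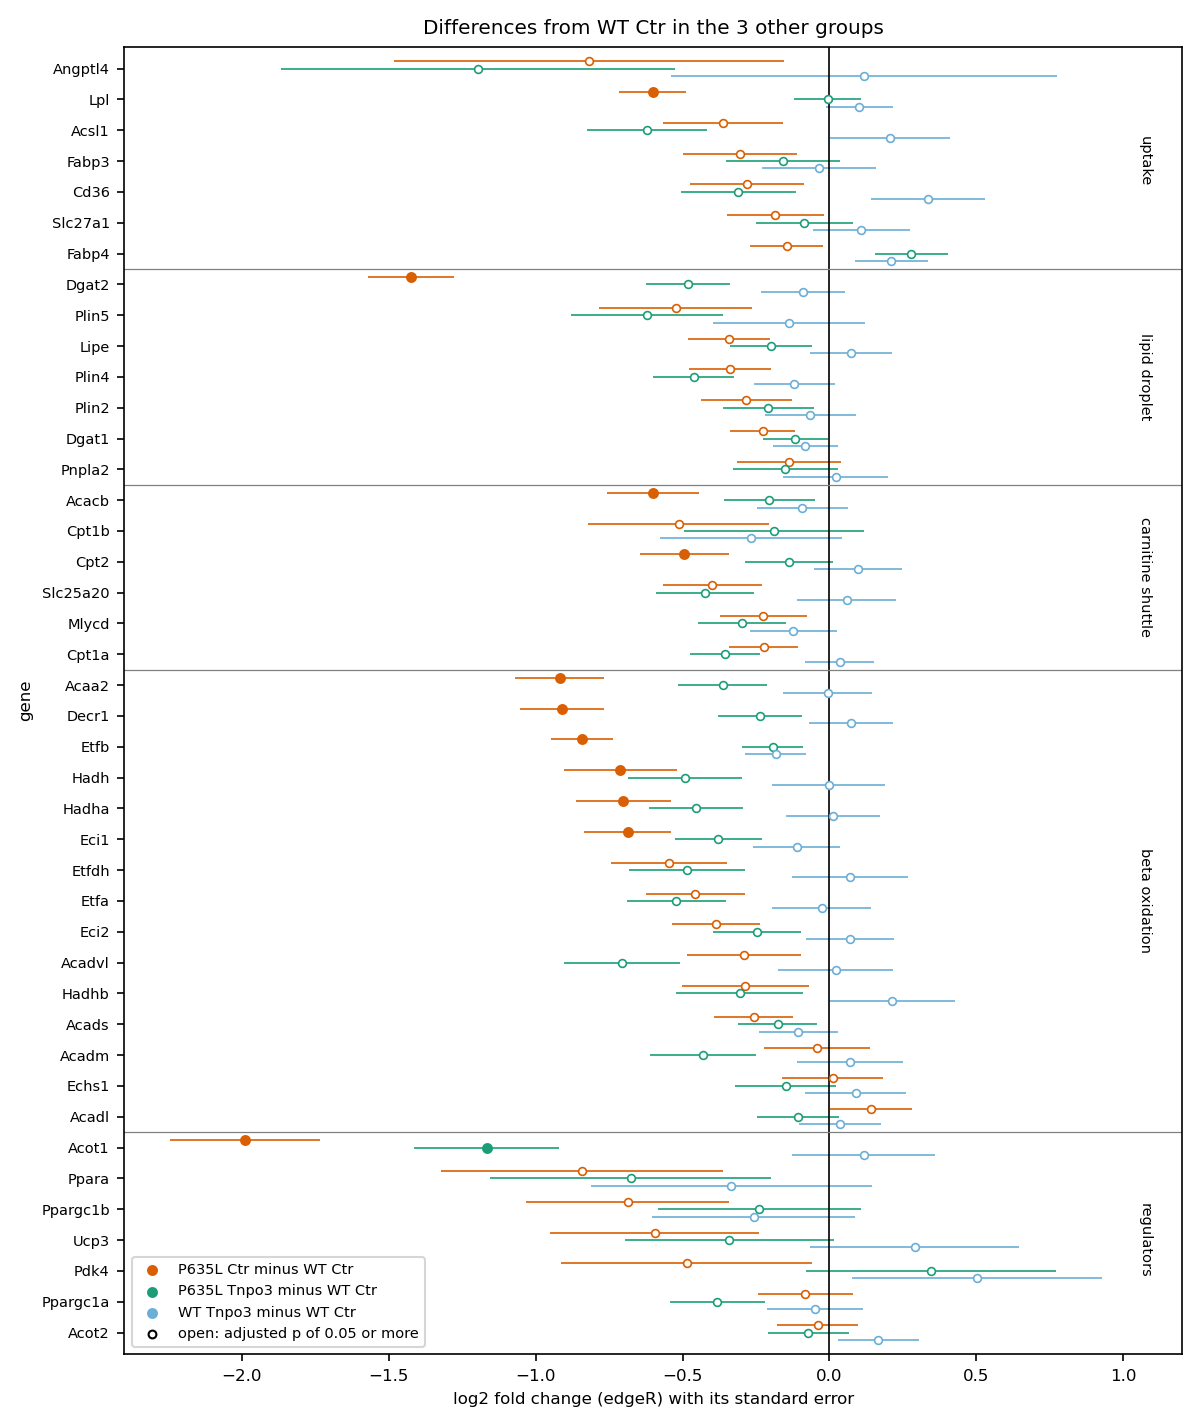
Points are log2 fold changes against WT Ctr with their standard errors for the 42 genes in the 3 other groups, filled where the adjusted p was under 0.05. 11 P635L Ctr points and 1 P635L Tnpo3 point (Acot1) are filled and no WT Tnpo3 point is, and the 3 sets share the WT Ctr libraries.

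Against WT hearts that had received the same Tnpo3 virus, 3 of the 42 genes were called in P635L Tnpo3, all lower, against 3.72% of all genes called and 2% called lower. They were Acot1 at -1.28 ± 0.25 (SE, edgeR adjusted p = 0.00681), Acsl1 (ENSMUSG00000018796, chr8:46924074-46989088, plus strand) at -0.83 ± 0.21 (SE, edgeR adjusted p = 0.0326) and Acadvl (ENSMUSG00000018574, chr11:69901009-69906237, minus strand) at -0.73 ± 0.20 (SE, edgeR adjusted p = 0.0463). Acsl1 was at 619.9, 591, 326 and 306 CPM in WT Tnpo3 and 273, 269.9, 284 and 212 in P635L Tnpo3, without overlap. Acadvl was at 367, 443, 251 and 222 CPM in WT Tnpo3 and 231, 171, 207 and 166 in P635L Tnpo3, and WT Tnpo3 replicate 4 lay inside the mutant range. In 39 of 42 genes the value was below 0, against 52.1% of all genes, with a median of -0.31. The count of calls turned on single libraries: it was 14 without WT Tnpo3 replicate 4, in which 33 of the 42 genes lay below the WT Ctr mean, and 18 without the 3 libraries rich in ENSMUSG00000119584, that one included. The calls among all genes moved as well, from 694 of 18662 to 1220 of 19045 and 1887 of 19532. Among the 42 it was 1 without WT Tnpo3 replicate 1 (298 of 19249 among all genes) or 2 (333 of 19145). It was also 1 without any single P635L Tnpo3 library, where 431, 366, 402 and 280 of all genes were called in replicate order. With the replicate number as a block it was 1 as well (547 of 18662 among all genes). Acot1 was the gene called in all 27 alternatives, Acsl1 was called in 17 and Acadvl in 12.

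In WT hearts the Tnpo3 virus gave 0 calls among the 42 genes in edgeR's quasi-likelihood test, with 0 at an unadjusted p under 0.05 and 0 calls with DESeq2. Among all genes 1 was called, 0.00536%, and 3.2% had an unadjusted p under 0.05. The median was 0.03, with 24 genes above 0 (45.2% of all genes) and 18 below. The means of the 11 genes lowered by the mutation lay near WT Ctr, for example 107.3% for Lpl, 93.9% for Dgat2, 88.0% for Etfb, 99.6% for Acaa2 and 108.2% for Acot1. The WT Tnpo3 libraries were themselves uneven. The median gene lay 0.22 and 0.19 above the WT Ctr mean on the log2 scale in replicates 1 and 2, at -0.04 in replicate 3 and at -0.42 in replicate 4. Hadhb, for example, was at 1017, 825, 571 and 393 CPM and Cd36 at 1700.2, 1376, 991 and 699.6 CPM, so that small effects of the virus in WT could not be seen at this spread.

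The interaction asked directly whether the effect of the Tnpo3 virus differed between P635L and WT hearts. It was called for 2 of the 42 genes, Etfb and Dgat2, both with a more positive effect in P635L, against 0.504% of all genes called and 0.295% called in this direction. Etfb was at 207, 207, 201 and 169.8 CPM in WT Ctr and 148, 187, 191 and 166 in WT Tnpo3, so the virus difference was -0.18 in WT and 0.65 in P635L, an interaction of 0.83 ± 0.15 (SE, edgeR adjusted p = 0.0115). For Dgat2 the WT Tnpo3 libraries were at 588, 445, 500.1 and 396 CPM, and the interaction was 1.03 ± 0.20 (SE, edgeR adjusted p = 0.0232). Etfb was called in all 26 alternatives that apply. Dgat2 was called in 18, and was lost without WT Ctr replicate 3 (0.99, edgeR adjusted p = 0.0634), WT Tnpo3 replicate 2 (0.98, 0.0555), P635L Ctr replicate 1 (0.97, 0.0583) or 2 (0.97, 0.058), P635L Tnpo3 replicate 2 (1.01, 0.0542) or 3 (0.93, 0.0702), without the libraries with high Xist (0.85, 0.107) and with the adipocyte covariate (1.08, 0.0556). For Lpl, Decr1 and Acaa2, called in P635L hearts and not in WT, the interactions were 0.49 ± 0.16 (SE, edgeR adjusted p = 0.213), 0.60 (0.222) and 0.56 (0.293), none called. Lpl was called with DESeq2 (0.48, DESeq2 adjusted p = 0.0236).

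A wider list of 84 genes of the same pathways, 81 of them tested, gave the surroundings of the 42. With the mutation 19 were called, all lower, against 14.2% of all genes called and 7.14% called lower, with a median of -0.25 against -0.05 for all genes. Acot3, a thioesterase of the Acot1 cluster, differed by -2.55 ± 0.51 (SE, edgeR adjusted p = 0.00212), the enoyl-CoA isomerase Ech1 by -0.94 ± 0.18 (SE, edgeR adjusted p = 0.00175) and Hsd17b10, a mitochondrial hydroxyacyl-CoA dehydrogenase, by -0.81 ± 0.14 (SE, edgeR adjusted p = 0.000589). Of lipid storage, the droplet formation genes Fitm2 and Fitm1 fell by 0.90 and 0.61 on the log2 scale, the acyltransferase Gpam by 0.61 and G0s2, an inhibitor of Pnpla2, by 0.69. The retinoid receptor Rxrg fell by 0.93, the pyruvate dehydrogenase kinase Pdk2 by 0.67 and the acyl-CoA synthetase Acsl6 by 0.62. The Tnpo3 virus in mutant hearts raised 3 of the 81, a share near the 3.88% of all genes called in either direction (1.63% higher): Acsl6 by 0.78 ± 0.19 (SE, edgeR adjusted p = 0.0267), Agpat2 of phospholipid and triglyceride synthesis by 0.58 ± 0.14 (SE, edgeR adjusted p = 0.0251) and the monoglyceride lipase Mgll by 0.36 ± 0.10 (SE, edgeR adjusted p = 0.0474). Against WT Ctr 2 were called lower in P635L Tnpo3, again near the 3.07% of all genes called (1.58% lower), the acetyl-CoA synthetase Acss1 at -0.64 ± 0.15 (SE, edgeR adjusted p = 0.0239) and the acetyl-CoA carboxylase Acaca at -0.57 ± 0.14 (SE, edgeR adjusted p = 0.0362). Between the Tnpo3 groups Acss1 (-0.75) and Fitm2 (-0.83) were called lower and Acsl6 (0.73) higher in P635L, where 3.72% of all genes were called, and the interaction was called for Acsl6 at 1.35 ± 0.27 (SE, edgeR adjusted p = 0.0258). In WT hearts the virus gave 0 calls among them, with 2 at an unadjusted p under 0.05.

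Over all 18662 genes, the profiles most like those of the called members across the 16 libraries were listed by Pearson's r of log2 CPM, as a description over libraries that share group and depth. Acaa2 was most like Ech1 (0.983), Decr1 (0.978) and Gstk1 (0.959), and Decr1 was most like Acaa2 (0.978), Ech1 (0.973) and Gstk1 (0.962). Dgat2 was most like Ogdhl (0.981), Sbk1 (0.972) and Lgi1 (0.970), and Acot1 like Smco1 (0.978), Gja3 (0.963) and Sec24c (0.961). Hadh and Hadha shared Slc2a4, the insulin-responsive glucose transporter, among their 3 nearest, at 0.960 and 0.969. Etfb was most like Tnnt1 (0.951), Emc9 and Myh7b (both 0.943). For Lpl the likeness was lower, at 0.921 for Clcn4, 0.919 for Shmt1 and 0.913 for 2310039L15Rik. Eci1 was nearest to Eno3 (0.980), Uqcrc1 (0.965) and Ldhb (0.959), Cpt2 to Ephx2 (0.960), Ech1 (0.944) and Dele1 (0.944) and Acsl1 to Lman1 (0.987), Maob (0.969) and Cs (0.964). Acadvl was nearest to Myzap (0.953), Yae1d1 (0.943) and Sdha (0.934), and Acacb to Daam1 (0.929), Tmem94 (0.911) and Ank2 (0.910). For Hadha the 3 were Ivd (0.976), Slc2a4 (0.969) and Crat (0.966), and for Hadh Gm5514 (0.976), Eci2 (0.960) and Slc2a4 (0.960).

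The authors' deposited tables of their own DESeq2 comparisons called 14 of the 42 genes between P635L Ctr and WT Ctr, all lower in the mutant, against 13.4% of the genes in that table. These were the 11 genes above together with Eci2, Etfa and Etfdh. For P635L Tnpo3 against WT Ctr the authors' deposited table called 10 of the 42 (4.75% of all), 9 lower and Fabp4 higher. The 9 were Acot1, Acadvl, Acsl1, Etfa, Etfdh, Hadh, Hadha, Acadm and Dgat2. For WT Tnpo3 against WT Ctr it called 0 of the 42, with 0.0122% of all genes called.

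Since RBM20 is a splicing factor, the members were also looked up in the authors' deposited rMATS splicing tables, with an FDR under 0.05 and an inclusion difference of at least 0.1. Between P635L Ctr and WT Ctr 4 of 226 events in 38 of the genes passed, against 2.87% of all events. Of these, 3 were skipped exon events of the fatty acid carrier Slc27a1, with inclusion differences of -0.16, -0.184 and -0.267 (WT Ctr minus P635L Ctr), and 1 was an alternative 3′ splice site of Eci2 (0.122). The Slc27a1 events concern exons at chr8:72021986-72022076 and, in the other two events, chr8:72022840-72022956, in GRCm39 per the submitters' processing notes. For P635L Tnpo3 against WT Ctr 0 of 233 events passed (2.31% of all), and for WT Tnpo3 against WT Ctr 1 of 220 (1.17% of all), a skipped exon of Etfa with a difference of -0.252. Neither Slc27a1 nor Etfa was called in the 6 edgeR contrasts of gene counts. The depth of these junctions was not used.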

How the data were processed

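Polyadenylated RNA of left ventricles was sequenced as stranded libraries, per the labels' protocols. The deposited gene table holds whole-number counts made by the authors, with STAR 2.7.9a, featureCounts 2.0.6 and build GRCm39 named in the submitters' processing notes. The annotation and the strand setting are not given in the sources used here. The deposited DESeq2 tables hold log2 fold changes and adjusted p-values by the authors, positive where WT Ctr is higher, and the deposited rMATS tables hold the authors' FDR p-values and inclusion differences. Symbols came from the splicing tables for 11276 genes and from a table of gene names for 40786, and 4891 had none.

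Counts were tested with edgeR 4.0.16 in R 4.3.3 (TMM factors, genes kept by filterByExpr, robust quasi-likelihood F test with a mean per group over all 16 libraries, 12 residual degrees of freedom). Benjamini-Hochberg adjustment ran over all 18662 genes, a call is an adjusted p under 0.05, all tests are two-sided, and the SE is the log2 fold change divided by the square root of F. The p-values measure the spread between mice. CPM values use TMM factors, and RPKM divides them by the exonic length in the table. On counts simulated for P635L Ctr against WT Ctr (3 runs over 18290 to 18372 genes, 200 changed), 59% of 2-fold and 80% of 4-fold changes were recovered and 4.43% of calls were false. These runs gave each gene the same spread in all groups, whereas the WT groups varied more than the P635L groups. The rates therefore need not hold for the data. The 24 pairs of replicates differed by more than sampling noise (chi-square per degree of freedom 19.7 to 774), and 0 were identical. Groups are given with the lowest and highest library or with every value. Values per library are named for members called in any of 6 contrasts and for the highest and most changed member of each role. Such values are also printed for Fabp4, Acadm, Ppara, Hadhb and Cd36, which this rule does not name. Other pathway genes are named if called, at most 10 per comparison. For each called member the 3 most alike genes are given. Exon overlaps come from the deposited coordinates, shared 50-base windows from GENCODE M21 transcripts, and promoters from RefSeq (GRCm38.p6). 27 alternatives were run (other normalisations, DESeq2 1.42.0, low-count filters, replicate block, left-out libraries, covariates). The members and all lists were chosen with earlier results of these data known.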

Additional observations from a re-analysis of the deposited data

Results flagged for a closer look

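Among the 168 sets of 4 libraries (42 genes in 4 groups), 7 held a library far from the other 3 by Dixon's criterion, where chance alone picks out about 1 in 20 sets. Ppara in WT Tnpo3 replicate 4 was at 23.2 CPM, against 7.11 in the next, and that library is 1 of the 3 rich in ENSMUSG00000119584. Cpt2 and Etfdh were high in WT Ctr replicate 2, at 212 CPM (next 179) and 498 CPM (next 409), and that library is also rich in ENSMUSG00000119584. Etfb was low in WT Ctr replicate 4, the other such WT Ctr library, at 169.8 CPM (next 201). Acads was low in WT Tnpo3 replicate 4, at 166.0 CPM (next 249). Acacb was high in P635L Ctr replicate 3, at 266 CPM (next 198), and Decr1 low in P635L Tnpo3 replicate 4, at 311 CPM (next 375). Their part in each result was not tested beyond leaving the library out.

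The effect of the Tnpo3 virus differed between genotypes for Dgat2, with an interaction of 1.03 ± 0.20 (SE, edgeR adjusted p = 0.0232), and for Etfb, with 0.83 ± 0.15 (edgeR adjusted p = 0.0115). Both genes were flagged because this interaction was called. In both all 4 P635L Tnpo3 libraries lay above all 4 P635L Ctr libraries, as in 9.36% of all genes, while the WT groups overlapped. These are the libraries that gave the call, so the ranges are no separate support. The Etfb call held in all 26 alternatives that apply and the Dgat2 call in 18.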

How the results depend on the processing

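No called result changed direction in any of the 27 alternatives, of which 26 apply to the interaction, while the uncalled medians of the virus in WT and of the interaction crossed 0. Single results were followed for the 17 named genes, where the unadjusted p was under 0.05 in the main fit. Of these, 1037 kept their side of the threshold, 66 lost a call and 25 gained one. Most of the 17 were named because they were called, and calls gained by other members are not in this count. With the mutation, 6 genes were called with the adipocyte covariate (1049 among all genes, 2653 in the main fit). Without the libraries rich in ENSMUSG00000119584, 10 were called (2320 among all genes, median of the members -0.25). Without single libraries 8 to 15 were called (1814 to 3141 among all genes, median of the members -0.43 to -0.30). For the virus in P635L, 11 were called when only the groups compared entered the fit (the 5, Acacb, Acot1, Cpt2, Fabp4 and Ppargc1b higher and Acadm lower). The calls among all genes rose there as well, from 724 of 18662 to 2846 of 17930. Without single libraries 4 to 6 members were called (282 to 1022 among all genes, median of the members 0.06 to 0.13). For P635L Tnpo3 against WT Ctr the count was 4 with DESeq2 (1135 among all genes, 573 in the main fit). It was 0 without the rich libraries (319), 3 without the high-Xist libraries (550) and 2 with a sex covariate (523). It was 0 with the adipocyte covariate (261) and 4 with only the groups compared (390). Without single libraries it was 0 to 4 (282 to 736 among all genes, median of the members -0.33 to -0.21). For P635L Tnpo3 against WT Tnpo3 it was 7 with DESeq2 (1458 among all genes, 694 in the main fit) and 18 without the rich libraries (1887). It was 1 with a sex covariate (376) and 1 with only the groups compared (462). Without single libraries it was 1 to 14 (280 to 1220 among all genes, median of the members -0.38 to -0.24). For WT Tnpo3 against WT Ctr it was 0 without any single library (median -0.06 to 0.15). For the interaction it was 1 without the high-Xist libraries (54 among all genes, 94 in the main fit) and 1 with the adipocyte covariate (82). It was 1 to 2 without single libraries (52 to 221 among all genes). The median of the members was -0.00 to 0.15 there, and -0.10 without the rich libraries. The causes were not tested, other than fewer libraries in a fit.

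Replicate numbers were not treated as pairs in the main fit. Of 24 same-numbered pairs 6 had a correlation of deviations above 0.1 (-0.257 to 0.552). Pairs with different numbers were not counted, so this does not show whether the numbers pair the mice. With the number as a block 11 genes were called for the mutation and 5 for the virus in P635L. The count was 1 for P635L Tnpo3 against WT Ctr, 0 for the virus in WT and 2 for the interaction. These 5 counts were the same without the block. For P635L Tnpo3 against WT Tnpo3 it was 1 in place of 3, with 547 among all genes in place of 694. Counts from single genes such as Acot1, Ppara and Angptl4, at a few CPM, carry more counting error than the rest.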
